A study of Mus musculus with 5 samples.

Results

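The genes described here are 10 markers of endothelial cells, the cells that line blood vessels, read in cells floating in the blood of mouse embryos. They form a list chosen by name (Pecam1, Cdh5, Kdr, Flt1, Emcn, Cldn5, Plvap, Ecscr, Ramp2 and Egfl7), and all 10 were found among the 24411 genes of the table. The cells came from wild-type C57BL/6 embryos at embryonic day 10 (E10, 3 replicate batches) and embryonic day 9.5 (E9.5, 2 replicate batches). Blood circulating in the heart was sorted to be TER119-, CD41-, CD43- and CD45-, which removes cells that carry these blood cell proteins, and single cells were then picked by mouth pipette. No treatment and no endothelial sorting marker is given in the labels. Transcripts were counted through UMIs, random tags that let copies of a molecule be counted once, and wells with 1000 or more genes and 30000 or more UMIs were kept, 294 of 480.

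Endothelial cells are joined by VE-cadherin (Cdh5), claudin 5 (Cldn5) and PECAM-1 (Pecam1) and sense the growth factor VEGF through the tyrosine kinase receptors encoded by Kdr (VEGFR2, the main signalling receptor) and Flt1 (VEGFR1, which binds VEGF tightly and largely acts as a decoy). Endomucin (Emcn) coats the luminal surface, Plvap forms the diaphragms of fenestrae and caveolae, and Ecscr is a surface protein of endothelial junctions and migration. Ramp2 is the partner protein of the adrenomedullin receptor, and Egfl7 is a secreted factor of sprouting vessels. In the mouse embryo of this age the endothelium of the yolk sac, aorta and heart is also in contact with the first circulating blood, and a part of it gives rise to blood cells.

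The kept cells comprised 87, 72 and 63 cells of E10 replicates 1, 2 and 3 and 26 and 46 cells of E9.5 replicates 1 and 2, with 44415774, 24267995, 20181093, 7545865 and 8380810 UMIs in that order. A kept cell held a median of 308924 UMIs, and the kept cell nearest the limit had 31294 and the nearest left out 28759. The median share of haemoglobin transcripts per cell was 0.0337%, 6.31% and 0.972% in the E10 replicates and 0.664% and 1.73% in the E9.5 replicates, although the sort was against TER119-positive cells. In 48 of the 294 cells haemoglobin exceeded 10% of the UMIs, and whether it came from blood cells or from free RNA was not tested. The batches reused the same 96 well numbers, and all 294 kept wells held distinct counts. Nothing in the labels says whether batches came from separate litters, so p-values below measure only the spread between these batches.

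Sequence is shown for annotated start regions of 5 of the 10 genes, among them Cldn5, Flt1 and Egfl7, whose patterns across cells differed. The regions run from 250 bases before to 50 after a RefSeq start on GRCm38.p6, for Kdr, Flt1, Emcn, Cldn5 and Egfl7. Pecam1, Cdh5, Plvap and Ramp2 were not matched. The start region and span of Ecscr are not reported here. Capitals mark the letters GGAAG on either strand (CTTCC as printed on the other strand), the core bound by ETS factors, a family that includes the endothelial regulators Etv2, Erg and Fli1. The regions lie at chr5:75978406-75978705 (minus strand) for Kdr, chr5:147725962-147726261 (minus strand) for Flt1, chr3:137340828-137341127 (plus strand) for Emcn, chr16:18776597-18776896 (plus strand) for Cldn5 and chr2:26580833-26581132 (plus strand) for Egfl7, the first of its 3 annotated starts.
Kdr: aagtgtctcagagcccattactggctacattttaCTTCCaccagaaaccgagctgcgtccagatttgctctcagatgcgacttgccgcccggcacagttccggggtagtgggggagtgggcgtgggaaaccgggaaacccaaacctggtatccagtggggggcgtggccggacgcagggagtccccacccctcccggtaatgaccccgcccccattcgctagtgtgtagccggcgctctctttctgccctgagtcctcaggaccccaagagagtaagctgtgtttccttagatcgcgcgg
Flt1: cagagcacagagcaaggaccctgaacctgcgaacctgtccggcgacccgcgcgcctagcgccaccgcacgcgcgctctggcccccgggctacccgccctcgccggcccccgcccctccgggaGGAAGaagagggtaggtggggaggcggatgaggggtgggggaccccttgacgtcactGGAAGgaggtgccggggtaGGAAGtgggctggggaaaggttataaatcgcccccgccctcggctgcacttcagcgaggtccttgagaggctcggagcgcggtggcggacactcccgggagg
Emcn: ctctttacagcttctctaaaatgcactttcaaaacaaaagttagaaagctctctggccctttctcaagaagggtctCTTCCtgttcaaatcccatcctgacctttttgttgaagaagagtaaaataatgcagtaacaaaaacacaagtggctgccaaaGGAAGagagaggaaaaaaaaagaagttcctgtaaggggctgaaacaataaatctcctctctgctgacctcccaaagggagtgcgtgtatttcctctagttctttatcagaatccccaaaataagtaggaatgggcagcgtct
Cldn5: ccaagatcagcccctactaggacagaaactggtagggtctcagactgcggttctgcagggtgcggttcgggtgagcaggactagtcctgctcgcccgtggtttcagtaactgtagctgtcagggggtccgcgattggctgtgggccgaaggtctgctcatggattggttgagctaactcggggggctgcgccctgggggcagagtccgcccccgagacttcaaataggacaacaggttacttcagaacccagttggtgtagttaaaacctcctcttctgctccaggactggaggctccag
Egfl7: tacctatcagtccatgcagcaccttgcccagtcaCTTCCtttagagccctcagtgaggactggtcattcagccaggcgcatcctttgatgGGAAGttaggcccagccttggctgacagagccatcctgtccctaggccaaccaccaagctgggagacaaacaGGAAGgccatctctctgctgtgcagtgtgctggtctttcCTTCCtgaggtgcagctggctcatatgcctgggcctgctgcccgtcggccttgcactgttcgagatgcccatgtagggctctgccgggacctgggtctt
The letters GGAAG occurred 1 time in the Kdr region, 3 times in Flt1, 2 times in Emcn, 4 times in this Egfl7 region and 0 times in Cldn5. They also occurred in 71.4% of all 32851 start regions of the same length, so their presence sets no gene apart. The longer CAGGAAG, which contains GGAAG, was found in the Emcn and Egfl7 regions and in 13.3% of all regions. A match describes letters only and was not tied to any binding here.

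The genes themselves span chr5:75932827-75979072 (Kdr), chr5:147561604-147726438 (Flt1), chr3:137341062-137431069 (Emcn), chr16:18776847-18778262 (Cldn5) and chr2:26581083-26592682 (Egfl7). Cdh5 spans chr8:104101613-104144504, Plvap chr8:71497753-71511806, Ramp2 chr11:101246334-101248250 and Pecam1 chr11:106654213-106715281 in the same RefSeq annotation. The libraries were primed from the poly(A) tail and count each molecule once, so levels in CPM (the UMIs of a gene per 1000000 UMIs of the cell) can be set side by side between genes without a correction for length.

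Of the 294 cells, 3 expressed nearly the whole endothelial set, and all 3 were in E9.5 replicate 1. Taking a gene as expressed at 20 CPM or more, these cells expressed 10, 9 and 8 of the 10 genes. No cell expressed 5, 6 or 7, 3 cells expressed 4, 12 expressed 3 and 39 expressed 2. A further 108 cells expressed exactly 1 of the genes and 129 expressed none. Cells with at least 7 of the 10 genes are called endothelial cells below, and any limit from 5 to 8 genes selects the same 3 cells.

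**Figure D1:**
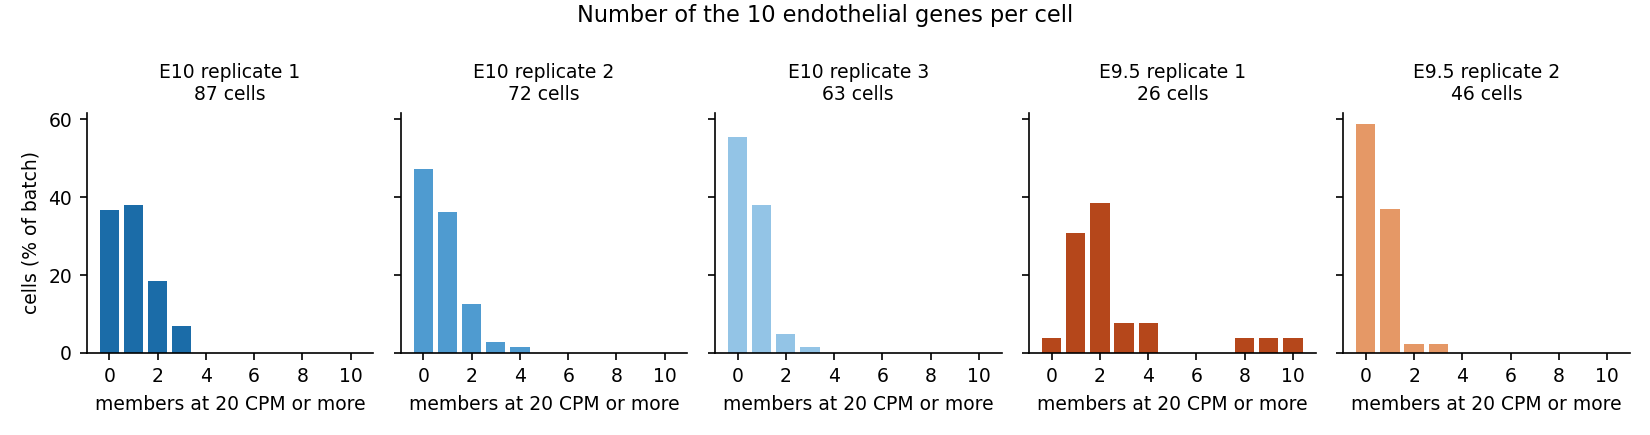
Share of the kept cells of each batch (y axis, percent) by the number of the 10 endothelial genes at 20 CPM or more (x axis). No bar lies above 4 genes in any batch, except for the 3 cells with 8, 9 and 10 genes in E9.5 replicate 1.

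No endothelial cell was found in E10 replicates 1, 2 and 3, where the 95% exact Clopper-Pearson intervals of the share reach 4.15%, 4.99% and 5.69%. In E9.5 replicate 1 endothelial cells were 11.5% of the 26 cells (95% exact Clopper-Pearson interval 2.45% to 30.2%). None were found in the 46 cells of E9.5 replicate 2, where the interval reaches 7.71%. The mean share was 0% at E10 (n = 3 batches) and 5.77% ± 8.16 at E9.5 (SD, n = 2 batches), so the E9.5 mean rests on replicate 1. Cells that expressed exactly 1 of the genes averaged 37.4% ± 1.10 at E10 (SD, n = 3) and 33.9% ± 4.38 at E9.5 (SD, n = 2), with every batch between 30.8% and 38.1%. Cells that expressed none were 36.8%, 47.2% and 55.6% of the E10 replicates, 58.7% of E9.5 replicate 2 and only 3.85% of E9.5 replicate 1. Those with 2 to 4 genes were 25.3%, 16.7% and 6.35% of the E10 replicates, 4.35% of E9.5 replicate 2 and 53.8% of E9.5 replicate 1. Because the number of genes per cell is a score over the list, no p-value is attached to it. Counting error is all that these intervals and limits cover.

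The 3 endothelial cells came from wells 7, 5 and 29 and are numbered 1, 2 and 3 in that order. They held 617906, 392969 and 219313 UMIs and 8611, 7170 and 7553 genes, and haemoglobin took 0.396%, 0.295% and 0.745% of their UMIs. The values of the 10 genes in these cells chose them and are given as a description.

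Among the junction genes, Cldn5 stood at 1057, 985 and 1733 CPM in cells 1, 2 and 3. Cdh5 stood at 350 and 252 CPM in cells 1 and 2 and at 0 UMIs in cell 3, and Pecam1 at 361 and 173 CPM in cells 1 and 2 and at 0 UMIs in cell 3. The cell with the highest Cldn5 level therefore had no transcript of the other 2 junction genes. Of all UMIs of Cdh5 in the 294 cells, 85.1% lay in these cells, against 61.5% for Pecam1 and 75.8% for Cldn5.

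The VEGF receptors parted. Kdr stood at 304, 196 and 196 CPM in cells 1, 2 and 3, while Flt1 stood at 85.8, 10.2 and 27.4 CPM. These cells held 30.5% of all Kdr UMIs and 5.7% of all Flt1 UMIs, the lowest shares of the 10 genes. In 11 other cells Flt1 was higher than in any endothelial cell, with a maximum of 416 CPM.

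The remaining genes were high in all 3 cells. Emcn stood at 992, 318 and 219 CPM, Plvap at 1915, 995 and 228 CPM, and Ecscr at 785, 392 and 565 CPM in cells 1, 2 and 3. Ramp2 stood at 1792, 1825 and 401 CPM and Egfl7 at 2426, 667 and 761 CPM. For Emcn, Cldn5, Plvap, Ecscr, Ramp2 and Egfl7, none of the 291 other cells reached the lowest of the 3 endothelial cells, and for Kdr 1 other cell did.

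**Figure D2:**
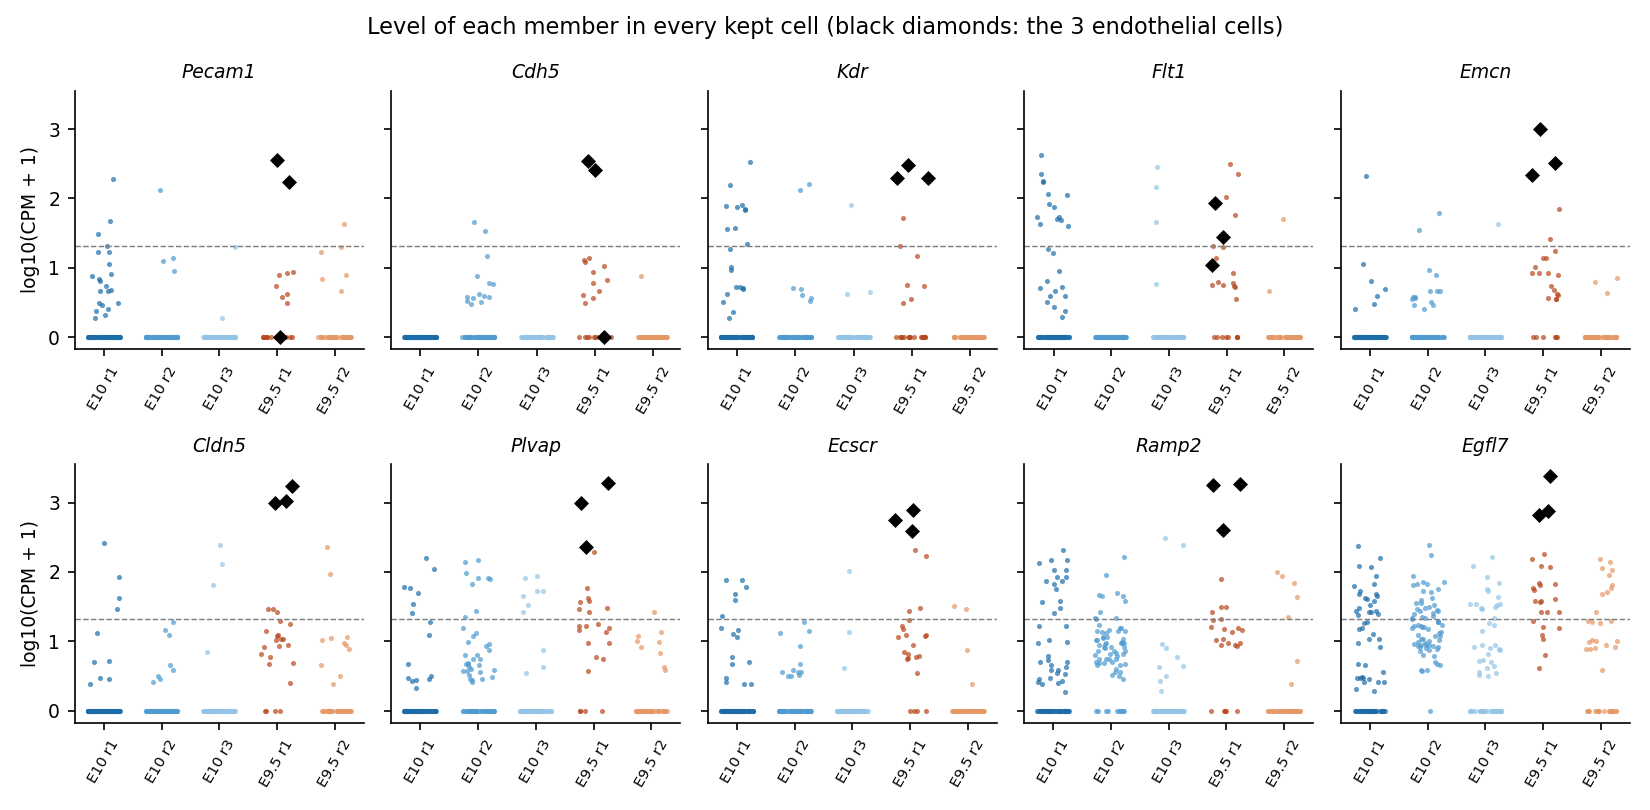
Level of each gene in every kept cell, as log10(CPM + 1), by batch (r, replicate); black diamonds are the 3 endothelial cells of E9.5 replicate 1 and the dashed line is 20 CPM. The diamonds lie above all other points for 6 genes, while Flt1 reached 416 CPM outside them and Pecam1 and Cdh5 were at 0 in 1 of them.

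Endothelial genes that played no part in choosing the cells were also read. Of 34 other endothelial genes, cells 1, 2 and 3 expressed 23, 20 and 22 at 20 CPM or more. Among cells with 2 to 4 of the 10 genes the median was 2 and the maximum 4, among cells with 1 gene the median was 1 and the maximum 4, and among cells with none the median was 1 and the maximum 5. No cell outside the 3 expressed 10 of the 34.

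The angiopoietin receptor gene Tek stood at 113, 265 and 438 CPM in cells 1, 2 and 3, and Tie1, its relative, at 80.9, 12.7 and 0 CPM. Among the transcription factors, Sox18 stood at 227, 165 and 95.8 CPM. Etv2, the ETS factor that starts the endothelial programme, stood at 0, 690 and 1258 CPM, whereas its relative Erg, which maintains it, stood at 337, 0 and 0 CPM. Etv2 was high in the 2 cells in which Erg had no UMI.

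Of genes that mark vein, Aplnr, the apelin receptor, stood at 233, 489 and 730 CPM, Nr2f2, the venous nuclear receptor, at 210, 168 and 201 CPM, and the semaphorin and VEGF co-receptor gene Nrp2 at 53.4, 626 and 461 CPM. Of the arterial genes, the connexin genes Gja4 and Gja5 and the Notch ligand gene Dll4 had no UMI in the 3 cells, and Efnb2 stood at 1.62, 0 and 95.8 CPM. Sox17 stood at 0, 344 and 82.1 CPM. Other arterial genes were expressed as well, Hey1 at 95.5 CPM and Notch4 at 32.4 CPM in cell 1, and Unc5b at 40.7 CPM in 1 cell. Cells 1, 2 and 3 expressed 5, 5 and 6 of 7 venous or lymphatic genes and 2, 2 and 3 of 12 arterial genes.

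Among endocardial genes, Hapln1, a link protein of the cardiac jelly, stood at 246, 379 and 793 CPM and Cgnl1 at 85.8, 115 and 100.3 CPM. Npr3 was detected in cell 1 only, at 157 CPM, and Nfatc1, the valve endocardium factor, in cell 2 only, at 78.9 CPM. Vwf stood at 58.3 CPM in cell 1 and at 0 in cells 2 and 3, and Gata4 and Tmem100 had no UMI in the 3 cells, so that cells 1, 2 and 3 expressed 4, 3 and 2 of the 7 endocardial genes. Of the genes of blood-forming endothelium, Gata2 stood at 8.09, 267 and 210 CPM and Kit at 37.2, 22.9 and 27.4 CPM. Neurl3 stood at 48.6 CPM in cell 1 and Runx1 at 1.62, 0 and 4.56 CPM. Myb had 1 UMI in the 3 cells, and Gfi1, Spn and Itga2b had none. Cells 1, 2 and 3 expressed 2, 2 and 2 of these 8 genes. Among the 34 other endothelial genes, Tal1 and Lmo2 stood at 11.3 and 4.86 CPM in cell 1. Both reached 20 CPM in 2 of the 3 cells, with maxima of 188 and 205 CPM.

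Markers of other cell types were then counted in the 3 cells. Cells 1, 2 and 3 expressed 1, 2 and 2 of 9 mesenchymal markers, against a median of 7 in the other 23 cells of the batch. None of the 8 megakaryocyte and platelet markers and none of the 7 mural markers reached 20 CPM in any of them. Of 8 macrophage and leukocyte markers, Laptm5 stood at 55.0 CPM in cell 1 and Fcgr3 at 201 CPM in cell 2, while the other 6, Ptprc (CD45) among them, had no UMI. Stmn2, 1 of 9 neural markers, stood at 343 CPM in cell 1, and Myl7, 1 of 7 heart muscle markers, at 178 CPM in cell 2. The part of other cells or their RNA in these values was not tested. The 11 erythroid markers summed to 3994, 3010 and 7478 CPM, almost all of it globin, against a median of 6696 CPM in the other 23 cells.

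**Figure D3:**
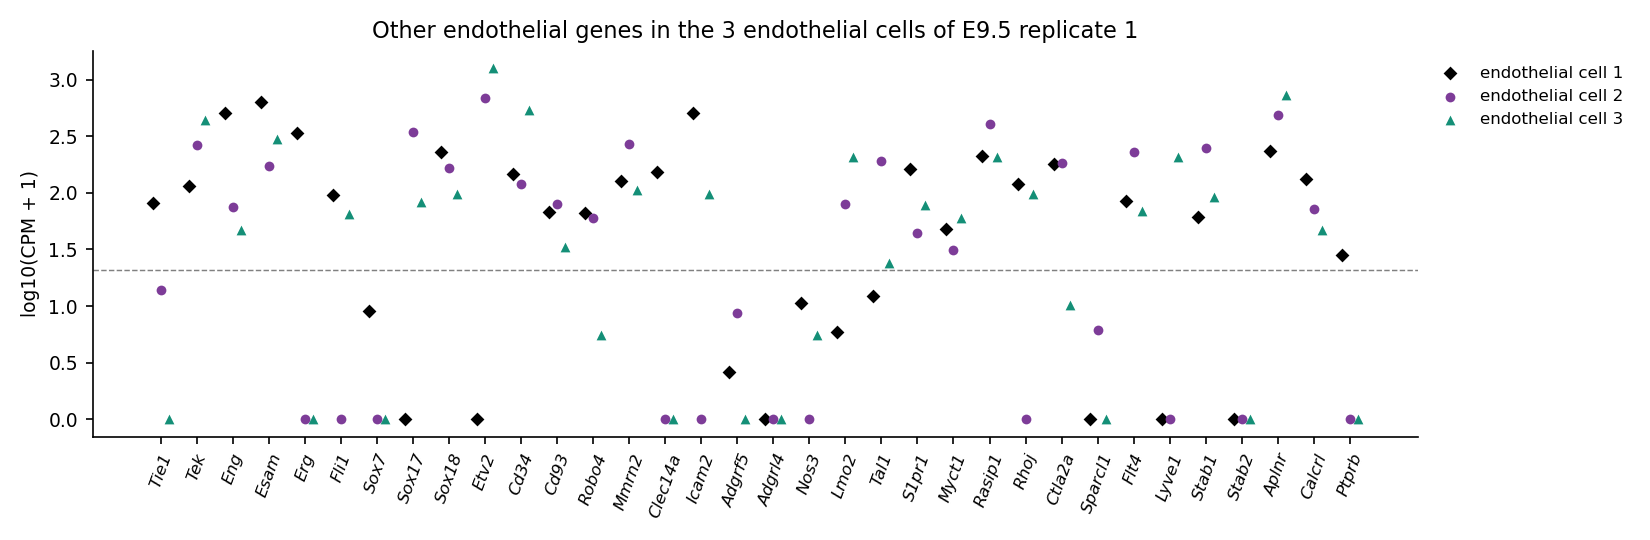
Level of the 34 other endothelial genes in the 3 endothelial cells, as log10(CPM + 1), with 1 symbol per cell and the dashed line at 20 CPM. Etv2 was high in cells 2 and 3 and at 0 in cell 1, and Erg the reverse.

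All 3 endothelial cells came from 1 batch, so their difference from cells that expressed 1 gene has no replicate and no test, and counting intervals alone are given. In E9.5 replicate 1 the 3 endothelial cells (1230188 UMIs) were set against the 8 cells with exactly 1 of the 10 genes (2380877 UMIs). By the marker classes defined further below, 1 of these 8 cells was neural-marked and all the others were mesenchymal-marked. The values therefore set endothelial cells against mostly mesenchymal-marked cells and do not describe single-gene cells in general. Leaving out the 10 genes, 882 of 7506 genes at 20 CPM or more in either sum (11.8%) were at least 4-fold higher in the endothelial cells and 1151 (15.3%) at least 4-fold lower. Of the 34 other endothelial genes, 27 stood at 20 CPM or more in the endothelial sum and 2, Fli1 and Sparcl1, in the single-gene sum, against 5825 and 6244 of the 24401 genes outside the list. A gene that passed the 20 CPM limit only through the endothelial cells could hardly come out lower, so counts of levels, not of ratios, are given for the lists. For ratios a count under 3 UMIs was raised to 3.

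Of 15 VEGF and angiopoietin pathway genes, 8 stood at 20 CPM or more in the endothelial sum and 7 in the single-gene sum. The lymphatic VEGF receptor gene Flt4 had 156 UMIs, or 127 CPM, in the endothelial cells and 1 UMI in the single-gene cells. The ligand gene Vegfa stood at 4.88 CPM (95% exact Poisson interval 1.79 to 10.6) in the endothelial cells and 56.3 CPM (47.2 to 66.7) in the single-gene cells, Vegfb at 11.4 and 84.0 CPM, and Angpt1, the Tek ligand, at 2.44 and 46.2 CPM. Adm, the gene of the ligand adrenomedullin, stood the other way in the sums, at 44.7 and 8.82 CPM, but the cells overlapped. The endothelial cells ranged from 15.3 to 91.2 CPM, and the highest single-gene cell stood at 114 CPM. Nrp1, at 225 and 116 CPM, and Nrp2, at 309 and 108 CPM, did not reach 4-fold.

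At 20 CPM or more were 6 of 7 venous or lymphatic genes in the endothelial sum and 3 in the single-gene sum. The counts were 3 and 1 of 12 arterial genes, 5 and 2 of 7 endocardial genes, and 3 and 0 of 8 genes of blood-forming endothelium. Nr2f2 stood at 195 CPM (171 to 221) in the endothelial cells and 112 CPM (99.1 to 126) in the single-gene cells. Of the 9 mesenchymal markers, 2 stood at 20 CPM or more in the endothelial sum and 9 in the single-gene sum, for instance Pdgfra at 9.75 and 135 CPM and Col1a1 at 4.06 and 127 CPM.

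By the rule of size, the genes outside the list with the largest ratios, each above the highest single-gene cell in all 3 endothelial cells, were Aplnr, Apold1, Tnfaip2, Lcp1, Rasip1, Lyl1, Esam, Pde2a, Klhl6 and Mmrn2. Apold1, an early-response gene of endothelium, stood at 591 CPM (549 to 636) in the endothelial cells and 2.10 CPM (0.682 to 4.90) in the single-gene cells. Esam, a junction adhesion molecule, stood at 426 CPM (390 to 464) and 2.94 CPM (1.18 to 6.06), and Rasip1, needed for vessel lumens, at 272 CPM (243 to 302) and 1.68 CPM (0.458 to 4.30). Lcp1, an actin bundling protein of blood cells, had 207 CPM (183 to 234) in the endothelial cells and 0 UMIs in the single-gene cells, at least 165-fold higher. The largest ratios the other way were those of Arg1, Epha4, Vcan, Plxnb2, Atat1, Pard6g, Lmna, Rere, Lpin2 and Wiz, with Arg1 at 7.32 CPM (3.35 to 13.9) and 441 CPM (414 to 468).

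The other 23 cells of E9.5 replicate 1 held the endothelial genes at low level. Egfl7 had a UMI in 23 of the 23 cells, Cldn5, Plvap and Ecscr in 19, Ramp2 in 18, Emcn in 17, Flt1 in 15, Cdh5 in 11 and Pecam1 and Kdr in 7. Summed over these cells the 10 genes stood at 165 CPM (155 to 175), against 7649 CPM in the endothelial cells, or 2.15% of their level. By gene this share was 0.669% for Pecam1, 0.85% for Cldn5, 1.12% for Ramp2, 1.41% for Emcn, 1.42% for Cdh5, 1.83% for Kdr, 2.11% for Plvap, 2.55% for Ecscr and 3.09% for Egfl7. Flt1 stood apart at 51.6%, with 26.4 CPM (22.6 to 30.8) in the other cells and 51.2 CPM in the endothelial cells. The part of free RNA from lysed cells in these low levels was not tested.

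**Figure D4:**
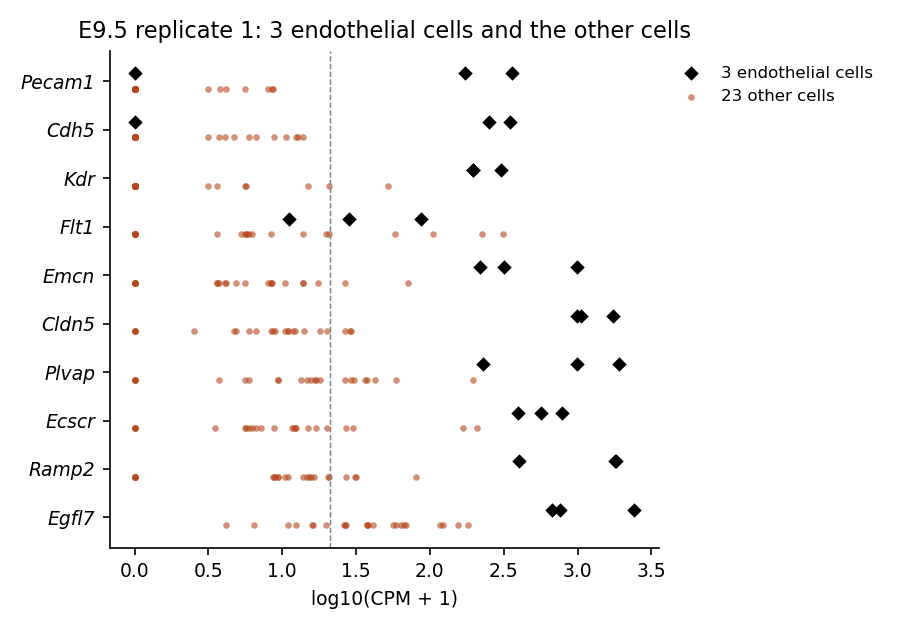
Level of the 10 genes, as log10(CPM + 1), in the 3 endothelial cells (black) and the 23 other cells (orange) of E9.5 replicate 1, with the dashed line at 20 CPM. The groups overlap for Flt1, and for Pecam1 and Cdh5 through the 1 endothelial cell at 0.

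Wells 7, 5 and 29 of the other 4 batches were read for carry-over between batches that share well numbers. They held 0 to 205 UMIs of the 10 genes together, against 6220, 2284 and 906 UMIs in the endothelial cells 1, 2 and 3. None of the 12 wells had a Pecam1 UMI and 1 had a Cdh5 UMI.

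Cells that expressed exactly 1 of the genes mostly expressed Egfl7. It was the 1 gene in 57 of the 108 cells (52.8%), followed by Plvap in 12, Flt1 and Ramp2 in 11 each, Cldn5 in 6, Kdr in 5, Ecscr in 4, Pecam1 and Emcn in 1 each and Cdh5 in 0. Egfl7 led in E10 replicates 1, 2 and 3, with 12, 19 and 13 such cells, and in E9.5 replicates 1 and 2, with 5 and 8. It had a UMI in 71 of the 72 cells of E10 replicate 2, with a median of 15.4 CPM. In the 23 other cells of E9.5 replicate 1 its median was 36.7 CPM. A cell near 20 CPM therefore lay close to the batch-wide level there. The medians were 0.967 and 2.47 CPM in E10 replicates 1 and 3 and 4.79 CPM in E9.5 replicate 2. Among these cells Egfl7 had a median of 47.9 CPM and a maximum of 234 CPM, below the 667 CPM of the lowest endothelial cell.

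Flt1 had a median of 112 CPM and a maximum of 416 CPM in its 11 single-gene cells, above the 85.8 CPM of the highest endothelial cell. The 1 cell with Pecam1 alone stood at 191 CPM, between endothelial cells 2 and 1. Cldn5 had a median of 179 CPM in its 6 cells and a maximum of 260 CPM, against at least 985 CPM in the endothelial cells. Plvap had a median of 72.9 CPM, Kdr of 74.7 CPM and Ramp2 of 45.4 CPM in such cells.

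In the 54 cells with 2 to 4 of the genes, Egfl7 was present in 34. Over the 291 other cells the most frequent pair was Plvap with Egfl7, in 17 cells, followed by Ramp2 with Egfl7 in 12 and Flt1 with Ramp2 in 6. Of the 45 pairs 17 occurred in no cell. The cells with 4 genes expressed Pecam1, Kdr, Plvap and Egfl7 in E10 replicate 2, and Flt1, Cldn5, Plvap and Egfl7 or Plvap, Ecscr, Ramp2 and Egfl7 in E9.5 replicate 1. These 3 cells expressed 4, 2 and 2 of the 34 other endothelial genes. The cell of E10 replicate 2 held only 45844 UMIs, 11.6% of them haemoglobin. It had 6 UMIs each of Pecam1 and Kdr and Plvap at 21.8 CPM. In so shallow a cell very few UMIs reach 20 CPM, so the number of genes per cell depends on depth.

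The cells that expressed each gene outside the endothelial cells were placed by markers of other cell types. Cells with at least 5 of 9 mesenchymal markers at 20 CPM are called mesenchymal-marked (145 cells), cells with at least 5 of 9 neural and neural crest markers neural-marked (33 cells), and cells with at least 10% haemoglobin haemoglobin-rich (48 cells). A haemoglobin-rich cell stayed in that class whatever its markers, other cells that met both marker counts are in neither marker class, and 65 cells were in none. These are ranges of a count and not cell types: 20 cells had 4 and 15 had 5 mesenchymal markers, 14 had 4 and 6 had 5 neural markers. The classes and their comparisons were chosen after the data were seen.

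Cldn5 rose in neural-marked relative to mesenchymal-marked cells. Its level in summed counts was 75.8, 11.2 and 21.4 CPM in neural-marked cells of E10 replicates 1, 2 and 3 and 45.1 CPM in those of E9.5 replicate 2, against 0.325, 0.251, 0.158 and 1.48 CPM in mesenchymal-marked cells of the same batches. Every neural-marked sum lay above every mesenchymal-marked sum. The mesenchymal-marked sums of E10 replicates 2 and 3 rest on 1 cell each, at 3.52 and 6.03 CPM. In E10 replicate 1, 126 of the 200 Cldn5 UMIs of all its cells lay in 1 neural-marked cell. With counts this low the size of the ratio is uncertain. The log2 fold change was 6.42 (SE 0.97, 4 of 4 batches higher), and the adjusted p was 0.000885 (edgeR, quasi-likelihood test, batch as a block, Benjamini-Hochberg over 12299 genes). Of these genes 5.28% were called, 2.95% higher and 2.33% lower. E9.5 replicate 1 did not enter, with 2 neural-marked cells, and went the other way, with Cldn5 at 2.22 CPM in those and 8.24 CPM in its 19 mesenchymal-marked cells before scaling.

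Of the 12 cells outside the endothelial cells with Cldn5 at 20 CPM, 9 were neural-marked and 2 mesenchymal-marked. The share with Cldn5 at 20 CPM was 27.3% of neural-marked cells (13.3% to 45.5%, median depth 280472 UMIs). It was 0 of 48 haemoglobin-rich cells (which allows 6.25% with 3 counts as the limit, median depth 362311 UMIs). In mesenchymal-marked cells it was 1.38% (0.167% to 4.89%, median depth 290251 UMIs). These shares pool cells of all batches, so their intervals leave out the spread between batches. E10 replicate 2, with 3 neural-marked cells, had no cell of any class with Cldn5 at 20 CPM. After each cell was thinned to 30000 UMIs, the shares with a UMI were 27.3%, 2.08% and 4.14% in the same order. The 3 highest Cldn5 cells outside the endothelial cells were neural-marked, at 260, 242 and 229 CPM, and expressed 0, 0 and 1 of the 34 other endothelial genes.

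Flt1, Kdr and Ecscr had negative fold changes in neural-marked relative to mesenchymal-marked cells that did not pass the test. Flt1 stood at 0.405 CPM in neural-marked cells of E10 replicate 1 and at 0 in those of the other 3 batches, against 22.1, 0 and 4.74 CPM in mesenchymal-marked cells of E10 replicates 1, 2 and 3 and 2.46 CPM in those of E9.5 replicate 2 (log2 fold change -6.37, SE 2.40, adjusted p = 0.169 by edgeR). Kdr stood at 0.2 CPM in neural-marked cells of E10 replicate 3 and 0 in the others, against 12.3, 0 and 10.7 CPM in mesenchymal-marked cells of the E10 replicates and 0 CPM in E9.5 replicate 2 (log2 fold change -6.40, SE 2.95, adjusted p = 0.28 by edgeR). Ecscr was lower in neural-marked cells in 4 of 4 batches, at 0.2 CPM in E10 replicate 3 and 0 in the others, against 5.604, 2.01 and 5.69 CPM in mesenchymal-marked cells of the E10 replicates and 1.97 CPM in those of E9.5 replicate 2 (log2 fold change -5.76, SE 2.43, adjusted p = 0.223 by edgeR). The single values above 0 in neural-marked cells were 1 UMI each. Of the cells with Flt1 at 20 CPM outside the endothelial cells, 21 of 22 were mesenchymal-marked, as were 10 of 14 with Kdr. In all classes together, E10 replicate 1 held 14 of the 22 Flt1 cells and 10 of the 14 Kdr cells, and it held 65 of the 145 mesenchymal-marked cells. E10 replicate 2 had no Flt1 UMI in 72 cells, which limits cells with a UMI and not cells that express the gene.

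Egfl7 rose in haemoglobin-rich relative to mesenchymal-marked cells. It stood at 27.1 and 39.5 CPM in haemoglobin-rich cells of E10 replicates 2 and 3 and 52.3 CPM in those of E9.5 replicate 2, against 11.6, 11.6 and 3.97 CPM in mesenchymal-marked cells of the same batches, and the groups did not overlap. The log2 fold change was 2.14 (SE 0.60, 3 of 3 batches higher), and the adjusted p was 0.0103 (edgeR, 11419 genes). Of these genes 23.6% were called, 12.4% higher and 11.2% lower. Without E9.5 replicate 2 it was 1.45 with an adjusted p of 0.2 by edgeR, and with each cell thinned to 30000 UMIs 1.92 with an adjusted p of 0.125, so neither passed. At 20 CPM, Egfl7 was expressed in 41.7% of haemoglobin-rich cells (27.6% to 56.8%), 27.3% of neural-marked cells and 22.8% of mesenchymal-marked cells (16.2% to 30.5%). It also reached 20 CPM in 29 of the 65 cells in no class, against 20 of the 48 haemoglobin-rich cells. This level was therefore not particular to haemoglobin-rich cells. The shares pool cells of all batches, and their intervals cover counting error only.

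Of the 10 genes, 8 passed the filter on low counts in the neural comparison and 5 in the haemoglobin comparison, and Cldn5 and Egfl7 were the 1 call in each. Pecam1 and Cdh5 passed the filter in neither. Among the other vascular genes, Fli1, an ETS factor of endothelium and blood, fell in both comparisons, with log2 fold changes of -4.13 (adjusted p = 0.000689, edgeR) in neural-marked and -3.80 (adjusted p = 5.44e-05, edgeR) in haemoglobin-rich cells relative to mesenchymal-marked cells. In haemoglobin-rich cells Tal1 and Lmo2, factors shared by blood and endothelium, rose by 5.18 and 3.47 on the log2 scale, and 4 of the 11 VEGF and angiopoietin genes tested fell, namely Vegfb, Nrp1, Nrp2 and Angpt1, where 11.2% of all genes fell. Also lower there were 3 of 5 arterial genes (Efnb2, Unc5b and Notch4), 3 of 4 venous or lymphatic genes (Nr2f2, Ephb4 and Nrp2) and 1 of 6 endocardial genes (Cgnl1). In neural-marked cells 0 of 12 VEGF and angiopoietin genes passed. Prox1, of the venous or lymphatic list, and Gata2, of the blood-forming endothelium list, rose by 5.71 and 4.19 on the log2 scale. Nr2f2 had a log2 fold change of -1.96 (adjusted p = 0.00347, 0.00243 and 0.00455 for Prox1, Gata2 and Nr2f2, edgeR). Whether neural-marked cells have a vascular trait was not tested.

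**Figure D5:**
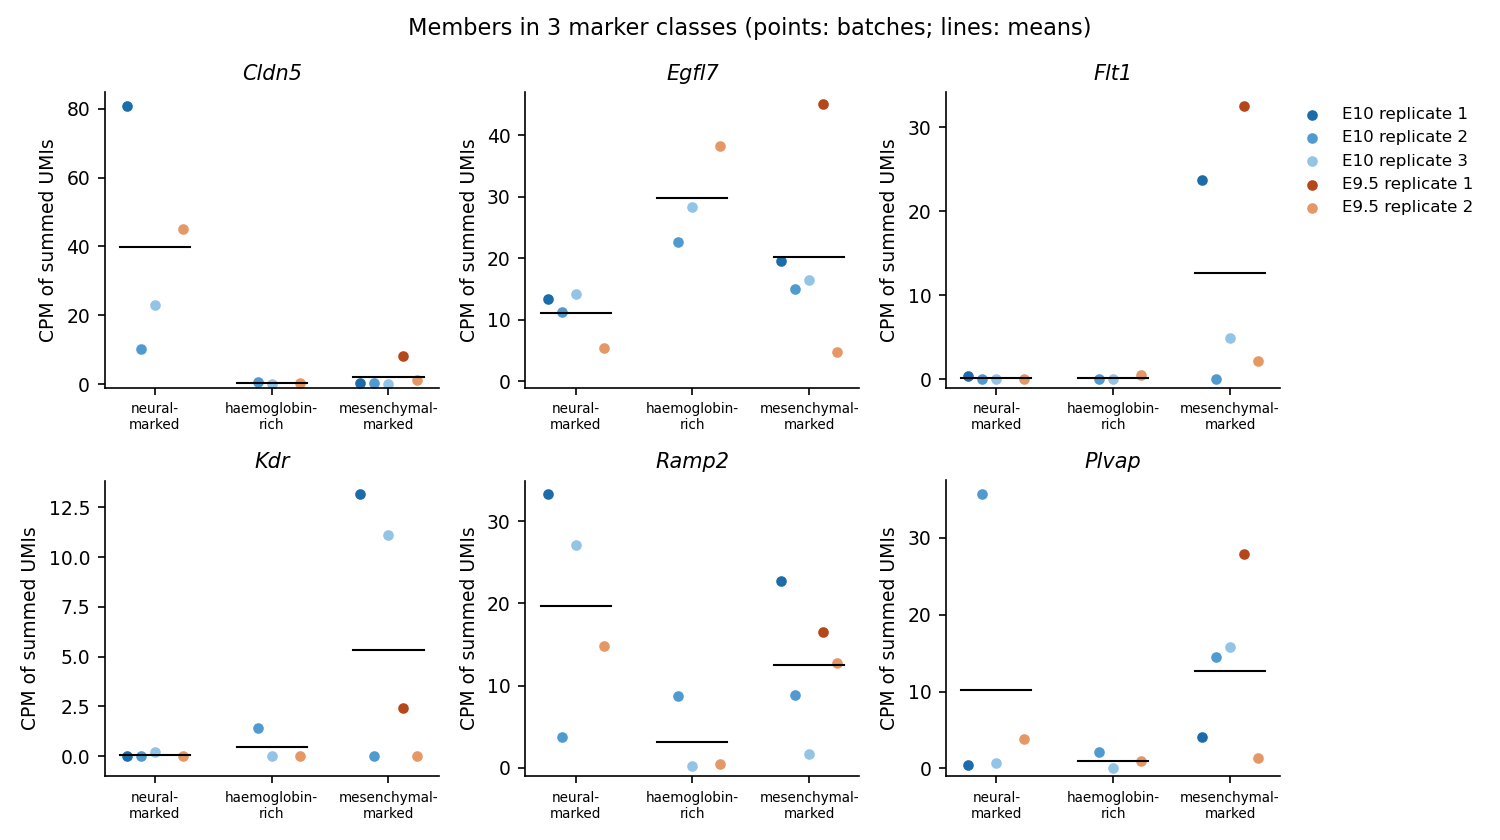
CPM of summed UMIs of 6 of the genes in neural-marked, haemoglobin-rich and mesenchymal-marked cells, unscaled between batches, with 1 point per batch of at least 3 such cells and a line at the mean. Cldn5 lies above 10 CPM in the 4 neural-marked sums and Flt1 and Kdr are near 0 in the neural-marked and haemoglobin-rich sums.

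Between the stages, none of the 10 genes passed the test, and the values hinge on 1 batch. Over all kept cells of a batch, Cdh5 stood at 0, 1.43 and 0 CPM in E10 replicates 1, 2 and 3 and at 43.1 and 0.135 CPM in E9.5 replicates 1 and 2. Cldn5 stood at 3.87, 0.83 and 5.14 CPM at E10 and 189 and 8.90 CPM at E9.5, and Egfl7 at 17.5, 35.4 and 19.9 CPM at E10 and 285 and 46.5 CPM at E9.5. Every gene was highest in E9.5 replicate 1. For Kdr, Flt1, Emcn, Plvap, Ecscr and Ramp2, E9.5 replicate 2 lay below 2 or more of the E10 replicates.

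The log2 fold changes of E10 over E9.5 were negative for all 10 genes, from -5.54 (SE 2.40) for Cdh5 to -1.30 (SE 1.90) for Flt1, with a median of -4.02 against 0.09 over all 14103 genes tested, and an adjusted p of 0.616 to 0.871 by edgeR. No gene of the table passed (0.0% called), 1119 (7.93%) had an unadjusted p under 0.05, and DESeq2 called 90 (0.556%). At an unadjusted p under 0.05, 7 of the 10 genes were lower at E10, where 3.2% of all genes were. DESeq2 called Pecam1, Ecscr and Egfl7 lower at E10, where it called 0.241% of all genes lower.

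Without the 3 endothelial cells the median log2 fold change of the 10 genes was -1.11 and again no gene passed. In its 23 other cells, E9.5 replicate 1 then held Cldn5 at 9.82 CPM and Egfl7 at 48.5 CPM, before scaling between batches. Without E9.5 replicate 1 the median was 1.02, and Cdh5, Kdr, Flt1, Emcn, Plvap, Ecscr and Ramp2 changed sign. No gene of the lists of 34 other endothelial, 15 VEGF and angiopoietin, 12 arterial, 7 venous or lymphatic, 7 endocardial and 8 blood-forming endothelial genes passed between the stages either. In sums over cells, fewer cells of a type and less RNA per cell cannot be told apart.

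The genes whose levels across the 294 cells were most like the mean log2(CPM + 1) of the 10 were Sox18, with a Pearson r of 0.726, Gimap6, with 0.72, Aplnr, with 0.64, and Cd34, with 0.634, among 12825 genes compared. They were followed by Tek, Scarf1, Mmrn2, Bcl6b, Apold1 and Gm13889, with r between 0.527 and 0.600. The cells share library and depth, and these values are descriptions. Without the 3 endothelial cells, r was 0.522 for Sox18 and 0.471 for Gimap6, which remained first and second, whereas it was 0.0833 for Scarf1 and 0.245 for Aplnr. Sox18 reached 20 CPM in 2 of the 291 other cells, with a maximum of 676 CPM, above the 227 CPM of the highest endothelial cell, and Gimap6 in 2, with a maximum of 70.2 CPM.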

How the data were processed

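The deposited table holds raw UMI counts per gene and cell. Per the labels' protocols, the libraries follow STRT-seq with changes, primed with oligo-dT. Per the submitters' processing notes, CASAVA 1.8, TopHat2 2.0.12 and HTSeq were used with mm10. The match of columns to samples rests on the batch number in both names.

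From these counts, spike-in rows (95) were dropped and CPM was computed per cell. Wells repeating a same-numbered well of another batch at under 10% of its UMIs numbered 23 at a limit of 5000 UMIs and 0 at 30000. No doublet caller was run, since single cells were picked singly by mouth pipette. Cell thinning used seed 1.

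Sums per batch, or per batch and class (at least 3 cells), were tested with edgeR 4.0.16 in R 4.3.3 (filterByExpr, TMM, quasi-likelihood, Benjamini-Hochberg at 0.05). The CPM of each fit are TMM-scaled and differ slightly between fits. The SE is the log2 fold change over the square root of F. DESeq2 1.42.0 was the second tool. The code was checked on simulated counts. Shares carry 95% Clopper-Pearson intervals and sums exact Poisson intervals.

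The planned class test needed 2 batches with endothelial cells and was not made. Genes named there had the 10 largest ratios per direction, with all 3 cells beyond every single-gene cell, and genes most like the 10 were the 10 with the highest Pearson r. Other list genes named were chosen after their values were seen. The genes and lists were chosen with earlier results of these data known.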

Additional observations from a re-analysis of the deposited data

Results flagged for a closer look

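Among 16 sets of 4 batch sums in the neural comparison, 6 held 1 batch far from the rest, where chance flags about 1 in 20 sets of continuous values. That rate does not apply to 3 of them (Kdr, Ecscr and Flt1 in neural-marked cells), which are 1 UMI against 3 batches at 0. The widest was Plvap in neural-marked cells, at 38.6 CPM in E10 replicate 2 against at most 3.89 CPM in the other 3 batches, where that sum held 3 cells. In neural-marked cells Kdr and Ecscr were detected in E10 replicate 3 only, at 0.200 CPM each, Flt1 in E10 replicate 1 only, at 0.405 CPM, and Egfl7 was lowest in E9.5 replicate 2, at 5.44 CPM. In mesenchymal-marked cells Cldn5 was highest in E9.5 replicate 2, at 1.48 CPM.

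For 4 differences the E10 batches lay on one side and E9.5 replicate 2 on the other, and the difference between stages was not tested. These differences are small in UMIs and give no stage-dependent direction: Emcn rests on 1 UMI in neural-marked and 2 in haemoglobin-rich cells, Plvap on 2 in haemoglobin-rich cells, and Egfl7 stood at 5.44 and 5.42 CPM. Relative to mesenchymal-marked cells, Emcn was higher at E9.5 by 0.778 CPM in neural-marked and by 1.28 CPM in haemoglobin-rich cells, Egfl7 by 0.0216 CPM in neural-marked cells and Plvap by 0.194 CPM in haemoglobin-rich cells, while each was lower in every E10 batch compared.

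The wells left out for low counts held 8 and 5 UMIs of the 10 genes in E10 replicates 2 and 3 and 8 in E9.5 replicate 1, above the 3 that a count of 0 allows. None had a Cdh5 UMI.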

How the results depend on the processing

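The number of endothelial cells was 3 under the alternatives except in these cases. A limit of 9 genes gave 2 cells, a level of 10 CPM gave 4, all in E9.5 replicate 1, and leaving out E9.5 replicate 1 gave 0. The cell added at 10 CPM was haemoglobin-rich and expressed only 2 of the 34 other endothelial genes at 20 CPM. Leaving out a batch gave 0 to 3. The mean share of single-gene cells was 43.0%, 27.4% and 41.8% at E10 and 21.5%, 28.4% and 25.3% at E9.5 with 10 CPM, 50 CPM and thinning to 30000 UMIs. Between stages, edgeR called 0 genes and DESeq2 90, of them 3 of the 10. Without the 3 endothelial cells, chosen after seeing the data, Kdr had a log2 fold change of 1.41 and Ramp2 of 0.073. Leaving out a batch gave -6.57 to 1.75 for Cdh5, -2.86 to 10.23 for Kdr, -3.61 to 2.9 for Flt1, -6.12 to 1.92 for Emcn, -4.92 to 1.16 for Plvap, -5.49 to 0.83 for Ecscr and -4.37 to 0.87 for Ramp2.

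In the neural comparison 650 genes were called, against 1391 with DESeq2, 1092 without the filter, 430 with no replicate block and 285 to 871 without 1 batch. The log2 fold change of Cldn5 was 5.62 to 6.995 without 1 batch; Plvap, not called, stood at 0.23 with no replicate block and -2.38 to 0.16 without 1 batch, and Ramp2 at -0.13 to 1.39. In the haemoglobin comparison 2694 genes were called, against 1704 after thinning and 770 to 2883 without 1 batch. Egfl7 stood at 1.92 after thinning (adjusted p = 0.125, edgeR), with 0 of the 10 genes called, and at 1.45 to 2.64 without 1 batch, with 0 to 1 called. The cause of these shifts was not tested. No paired analysis was possible because the labels number the batches 1 to 5 with none shared between stages. The comparison of endothelial with single-gene cells and its alternatives were not run as a test.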
